A study of Ostrinia furnacalis with 30 samples.

Results

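The silk gland of 3rd instar larvae of the Asian corn borer, Ostrinia furnacalis, was compared with 3 other larval tissues. The genes described are those with a value of at least 1 FPKM (fragments scaled by gene length and by library size) in at least 3 of the 12 tissue libraries. This rule kept 12307 of the 20852 gene models of the table, and 18809 models had a value above 0 in any of the 12 libraries. Of the genes kept, 129 were serine proteases or their homologs, the subject of the study, and are counted but not described further. The other 12178 genes comprised 8440 with a gene description and 3738 that were uncharacterized or undescribed.

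The study sequenced RNA of wild type insects, from whole animals at 6 stages and from dissected tissues of 3rd instar larvae, in 30 libraries. The tissues were silk gland, hemolymph, midgut and fat body, with 3 libraries each. According to the study's methods, each sample pooled the organs of several larvae, and hemolymph was bled from cut prolegs, so that it holds the circulating hemocytes with their RNA. Nothing in the labels says that the 3 samples of a tissue came from separate rearings, so p-values measure the spread between these samples, which may be partly technical.

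In caterpillars the silk gland is a pair of modified labial (salivary) glands that open at the mouth. Their very large polyploid cells do not divide in the larva, but copy their DNA over and over, and they release proteins into the gland lumen. In the silkworm Bombyx mori the posterior part makes the fibre proteins (fibroin heavy chain, fibroin light chain and fibrohexamerin, also called P25), and the middle part coats the fibre with sericins. Fibroins are rich in glycine, alanine and serine, and their transcripts are among the most abundant known in insects.

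The silk gland libraries held between 10908503 and 12320511 fragments assigned to genes, and the other 9 libraries between 14310049 and 17612901. The 10 genes with most fragments took 38.9% to 41.4% of all fragments in the silk gland libraries. On the log2(FPKM + 1) scale the 3 silk gland libraries correlated across genes at 0.938 to 0.949 with each other and at 0.504 to 0.657 with libraries of the other tissues. Genes are not independent replicates in such a correlation. The deposited values also carry a scaling between libraries, by which the effective library size of the silk gland was set to 0.447 to 0.491 times its fragments, against 1.61 to 1.76 times for hemolymph. Under that scaling the median log2 fold change of all genes was 0.03 against hemolymph, -0.01 against midgut and -0.03 against fat body. Dividing by the recovered fragments alone moved these medians to -1.28, -0.60 and -0.14. Counts of calls in broad lists are therefore given with both scalings where they differ most.

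A gene was called higher or lower at a Benjamini-Hochberg adjusted p under 0.05 in limma, fitted to all 12 tissue libraries, with a log2 fold change of 1 or more in size. Fold changes are silk gland over the other tissue on the log2(FPKM + 1) scale, which makes changes of weakly expressed genes look smaller, and errors are standard errors of that fit with 3 libraries per tissue. Against hemolymph 2248 genes (18.3% of those tested) were higher in the silk gland and 1924 (15.6%) were lower. Against midgut 1836 (14.9%) were higher and 2277 (18.5%) were lower. Against fat body 1664 (13.5%) were higher and 2104 (17.1%) were lower. Scaled by recovered fragments, 12023 genes could be tested, and the split was 856 higher (7.12%) and 7031 lower (58.5%) against hemolymph, 820 (6.82%) and 4115 (34.2%) against midgut, and 1106 (9.2%) and 2045 (17.0%) against fat body. With limma-voom on the recovered fragments it was 1100 and 7466, 971 and 4868, and 1381 and 2507.

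Higher in the silk gland than in every other tissue were 893 genes (7.26%), and lower than in every other tissue were 245 (1.99%). Scaled by recovered fragments these sets held 445 (3.7%) and 792 genes (6.59%). All 445 were among the 893, as were 494 genes with limma-voom, and 229 and 236 of the 245 stayed in the lower set. The 3 comparisons share the silk gland libraries, so a silk gland library that stands apart moves all of them. The higher set had the wider range: in 453 genes every log2 fold change was at least 2, in 126 at least 5 and in 39 at least 10. For 35 of the 893 the value was 0 in all 9 other libraries. In 866 the lowest silk gland library lay above the highest of the other 9. This separation follows largely from how the genes were picked, and its share over all genes was not counted. The lower set was shallower, with 77 genes at 2 or more in every comparison and 3 at 5 or more. A total of 5018 genes were called in none of the 3 comparisons.

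**Figure D1:**
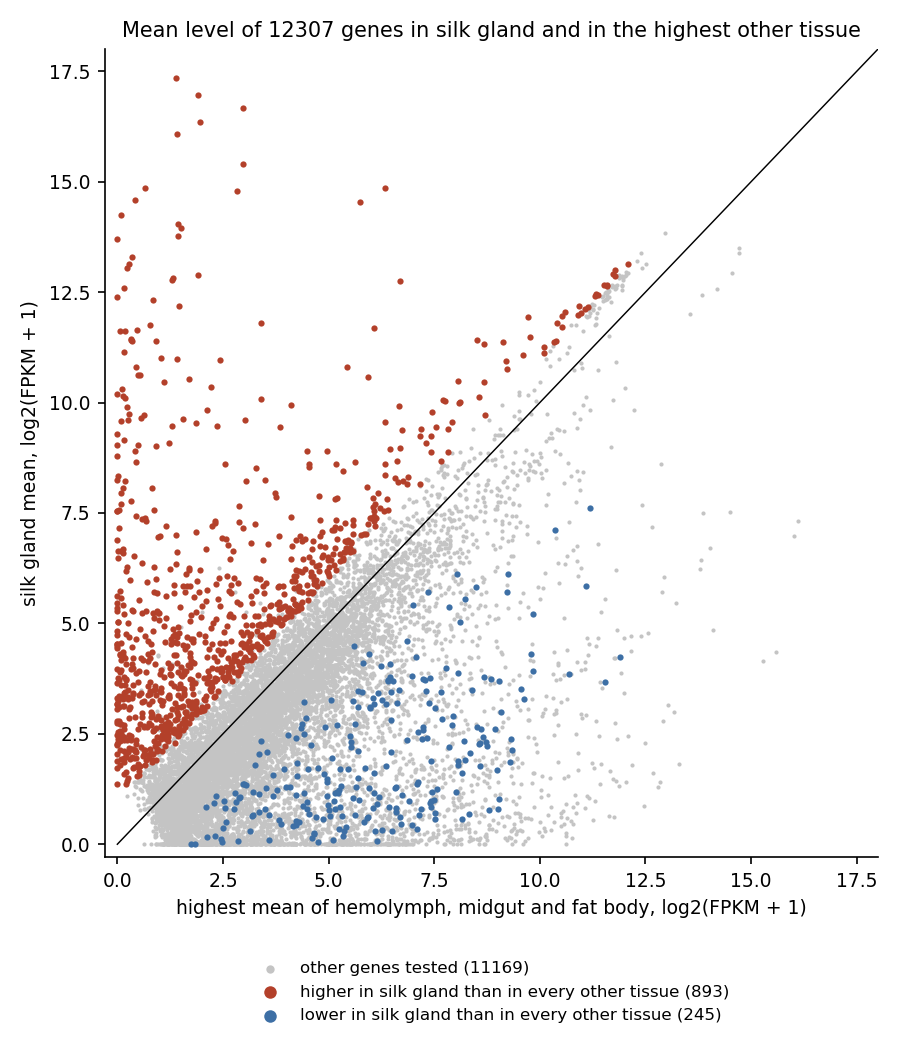
Mean level of each of the 12307 genes in the silk gland (vertical axis) against its highest mean among hemolymph, midgut and fat body (horizontal axis). Both are means of FPKM over 3 libraries, drawn as log2(mean FPKM + 1). Red points are the 893 genes higher in the silk gland than in every other tissue and blue points the 245 lower, and the line marks equal levels. The red points spread along the left edge up to the top of the vertical axis, where GspB-like LOC114366142 (130909 to 186217 FPKM in the silk gland) stands highest.

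The 893 higher genes held 64.9% of all silk gland fragments (63.0% to 66.5% over the 3 libraries), against 6.40% in hemolymph, 4.50% in midgut and 4.10% in fat body. Since these genes were picked from the same libraries, the shares describe the set and test nothing. Of the 893, 579 had a description and were no serine protease, 4 were serine proteases or homologs, and 310 were uncharacterized or undescribed, 31 of them long non-coding RNA models out of 365 tested. Of the 15 genes with the highest silk gland level 14 were in the set, and of the 100 highest 42 were. The exception among the 15 was elongation factor 1-alpha (LOC114359586), which brings aminoacyl-tRNAs to the ribosome. It stood at 12843, 13124 and 18245 FPKM in the silk gland, against 4304, 3251 and 3874 FPKM in hemolymph and 8548, 7644 and 7795 FPKM in fat body. All 3 silk gland libraries were above those of the other tissues, but the log2 fold change of 0.86 ± 0.17 against fat body was under the size asked for. The 1.94 ± 0.17 against hemolymph came to 0.07 when scaled by recovered fragments.

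The 15 highest genes together took 42.9% of silk gland fragments (40.7% to 44.5%), against 1.33% in hemolymph, 0.755% in midgut and 0.912% in fat body. Besides elongation factor 1-alpha they included 3 models whose description names a silk or cocoon protein, 7 uncharacterized models, and 4 named after proteins of other organisms (a bacterial platelet-binding protein, spider spidroin-2, a mucin and a Mediator subunit). Such descriptions come from automatic annotation by sequence similarity, and no role in the corn borer is taken from them.

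**Figure D2:**
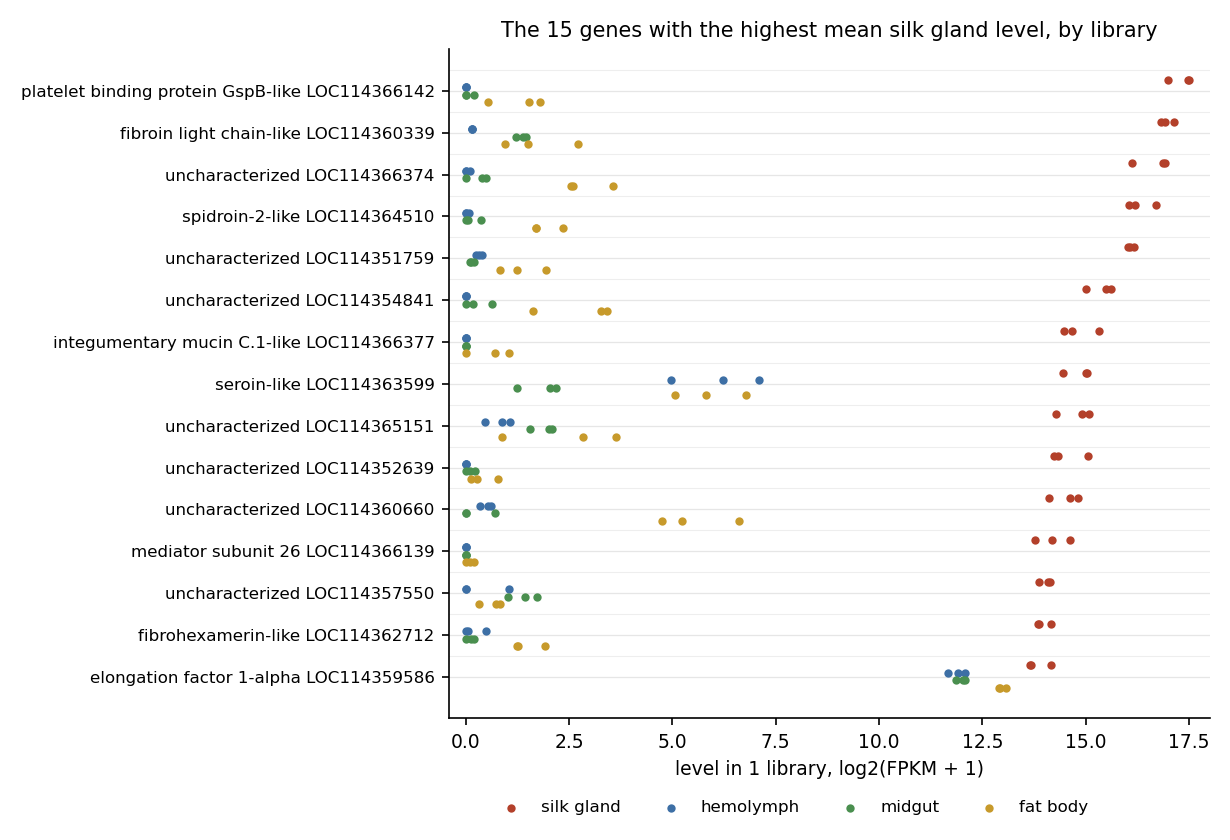
Level in each library, log2(FPKM + 1), of the 15 genes with the highest mean silk gland value, with 3 points per tissue. Silk gland points (red) lie above 13 for every gene, while those of hemolymph, midgut and fat body lie under 8 except for elongation factor 1-alpha, where fat body is closest to the silk gland.

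Of 8 gene models whose description contains fibroin, fibrohexamerin, sericin, seroin or silk, 5 passed the filter, and all 5 were higher in the silk gland than in every other tissue under each scaling tried. Markers of the labelled tissue were thus abundant in its libraries, though none of the 8 was described as a sericin. The 8 models together held 8.59% ± 0.603 of silk gland fragments (SD, n = 3), against 0.0140%, 0.00165% and 0.00465% in hemolymph, midgut and fat body.

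Fibroin light chain-like LOC114360339 (NW_021135187.1, 1180 to 9276, plus strand), the small subunit bound to the fibroin heavy chain in Bombyx, had 124151, 144541 and 114884 FPKM in the silk gland. It had 0.116, 0.108 and 0.109 FPKM in hemolymph, 1.31, 1.59 and 1.76 in midgut, and 1.85, 5.55 and 0.926 in fat body. No library of another tissue came near those of the gland. The log2 fold changes were 16.81, 15.61 and 15.24, each ± 0.34 (limma, adjusted p = 8.5e-12, 1.33e-11 and 2e-11 against hemolymph, midgut and fat body). Fibrohexamerin-like LOC114362712, named after the glycoprotein that joins light and heavy chains in the silkworm, had 15032, 14711 and 18146 FPKM in the silk gland and at most 2.75 FPKM elsewhere. Its log2 fold changes were 13.78, 13.84 and 12.48, each ± 0.22. Light chain-like transcripts thus stood far above fibrohexamerin-like ones per gene length, in each of the 3 libraries.

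Seroin-like LOC114363599 belongs to a family of small cocoon proteins that inhibit proteases and microbes in Bombyx. It had 22240, 32949 and 33647 FPKM in the silk gland, against 137, 30.2 and 73.9 FPKM in hemolymph, 3.52, 3.1 and 1.34 FPKM in midgut, and 109, 55 and 32.5 FPKM in fat body. It was the silk protein with the highest values outside the gland, and still the groups did not overlap (log2 fold changes of 8.73, 13.02 and 8.94, each ± 0.53). The 3 models described as fibroin heavy chain-like did not pass the filter. In the study's mapping summary the silk gland libraries had the lowest shares of mapped reads among the tissues. They also had the highest shares of reads mapped to several places. Whether heavy chain reads were lost in mapping was not tested, so low values of these models are not read as absence of the transcript. The highest value of LOC114363412 in any silk gland library was 3.41 FPKM, with 0 in the other 2 of that tissue, and the other 2 models had at most 0.412 FPKM in any tissue library.

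The other 2 members are transcription factors. Silk gland factor 1 (LOC114352712) is a forkhead protein and silk gland factor 3 (LOC114362451) a POU-domain protein, both first described as binding silk gene promoters in Bombyx. Silk gland factor 1 had 49.6, 48 and 59 FPKM in the silk gland, against 0 in all 3 hemolymph libraries, 5.91, 3.45 and 6.47 FPKM in midgut, and 0.588, 0 and 0 FPKM in fat body. In the deposited values it was at least 521-fold higher than in hemolymph, taking a floor of 3 fragments per library for values of 0. Such bounds depend on the scaling between libraries and were not computed for values scaled by recovered fragments. The log2 fold changes of silk gland factor 1 against midgut and fat body were 3.11 ± 0.25 and 5.50 ± 0.25. Silk gland factor 3 had 22.3, 28.9 and 24 FPKM in the silk gland and at most 3.08 FPKM elsewhere (log2 fold changes of 4.68, 3.66 and 3.08, each ± 0.23).

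The gene with the highest silk gland level was LOC114366142, described as platelet binding protein GspB-like. It lies on the plus strand of NW_021130779.1, from 36979 to 38384. It had 130909, 182293 and 186217 FPKM in the silk gland, 0 in all 3 hemolymph libraries, 0, 0 and 0.15 FPKM in midgut, and 1.87, 2.47 and 0.456 FPKM in fat body. The log2 fold change was 17.26 ± 0.28 against midgut and 16.04 ± 0.28 against fat body. In the deposited values the level was at least 1828120-fold that of hemolymph on the same floor. A further 3 models run up to it on the same strand, each overlapping the next at its end: LOC114366141 from 28881, LOC114366140 from 32788 and LOC114366139 from 33980. All 4 were higher in the silk gland than in every other tissue, with at most 0.246 FPKM outside the gland in the first 3, and together they held 13.9% of silk gland fragments (13.0% to 14.7%). LOC114366139 had 25313, 13886 and 18727 FPKM in the silk gland. LOC114366140 and LOC114366141 were less even among libraries, and LOC114366141 had 33154 FPKM in replicate 1 but 2662 and 3949 FPKM in replicates 2 and 3. The methods name RSEM for quantification, which divides reads that fit several models by estimate. The deposited values up to 200 fragments were whole fragments in every library, so how such reads were assigned is not known. Values of single models in such a run are therefore uncertain.

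Of runs of neighbouring tested genes in the 893, 8 held 4 or more. The next by abundance was on NW_021130868.1 (668880 to 695109), where 5 models held 3.96% of silk gland fragments. It begins with uncharacterized LOC114366374, at 71114, 123213 and 120587 FPKM in the silk gland and at most 10.7 FPKM elsewhere (13.74 ± 0.29 against fat body, its smallest log2 fold change). Elastin-like LOC114366376 followed with 14729, 20053 and 7088 FPKM. Integumentary mucin C.1-like LOC114366377 had 22623, 26014 and 40581 FPKM in the silk gland, against 0 in every hemolymph and midgut library and 0.62, 1.07 and 0 FPKM in fat body. The longest run, 7 models on NW_021131471.1 (115374 to 197247), held 0.682% of silk gland fragments and included antichymotrypsin-2-like LOC114351968, named after a serpin (1883, 1281 and 1249 FPKM in the silk gland, at most 6.5 FPKM elsewhere).

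Spidroin-2-like LOC114364510 shares its description with a spider dragline silk protein. It had 74872, 107023 and 67802 FPKM in the silk gland and at most 4.15 FPKM elsewhere, with log2 fold changes of 16.29, 16.18 and 14.40, each ± 0.23. Uncharacterized LOC114351759 was the most even of the abundant models, at 68740, 66935 and 73182 FPKM in the silk gland and at most 2.82 FPKM elsewhere. Collagen alpha-2(IV) chain-like LOC114350083 stood at 9695, 7948 and 7720 FPKM in the silk gland and at most 0.307 FPKM in the other 9 libraries (log2 fold changes of 13.02, 13.02 and 12.82, each ± 0.17). Collagen IV proper is the network protein of basement membranes. A neighbouring pair of models with that name, LOC114354526 and LOC114354527, went the other way: they averaged 5.78 and 3.81 FPKM in the silk gland, against 557 and 364 FPKM in hemolymph. That pair was chosen after its values were seen.

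Calcium-binding protein P-like LOC114358486 was at 1270, 978 and 1265 FPKM in the silk gland and at 0 in all 9 other libraries. On the same floor and with the deposited scaling, it was at least 8706-fold higher than hemolymph, 4688-fold higher than midgut and 3270-fold higher than fat body. Dentin matrix acidic phosphoprotein 1-like LOC114360134 was also at 0 in all 9, but varied within the gland (13625, 1343 and 1151 FPKM). Peroxidase-like LOC114363885, of a family that oxidizes substrates with hydrogen peroxide, had 1188, 891 and 1329 FPKM in the silk gland and at most 0.118 FPKM elsewhere. Venom allergen 5 2-like LOC114363970 was 0 in hemolymph and also uneven in the gland, with 806, 1699 and 6954 FPKM.

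Protease inhibitors were divided. Of 28 tested, 11 were higher and 7 lower against hemolymph, 12 and 6 against midgut, and 11 and 13 against fat body. Relative to every other tissue 10 were higher and 2 lower. The list's median log2 fold change of 0.79 against hemolymph and 0.71 against midgut turned to -0.65 and -0.23 when scaled by recovered fragments. Trypsin inhibitor-like LOC114353112 was nearly constant in the gland, with 5236, 5013 and 5041 FPKM, against 0 in all hemolymph and midgut libraries and 0.268, 1.86 and 0.229 FPKM in fat body. LOC114349940, of the same description, had 9306, 8646 and 2981 FPKM in the silk gland and at most 2.66 FPKM elsewhere. Of 6 models so described 4 were higher than in every other tissue, a family picked after its values were seen. Serine protease inhibitor 77Ba-like LOC114355402, a serpin that restrains melanization in Drosophila, was lower: 3.04, 1.48 and 10.5 FPKM in the silk gland, against 85.9, 127 and 85.6 FPKM in hemolymph and 170, 146 and 133 FPKM in fat body.

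Genes for entry into the secretory pathway were higher in the silk gland under the deposited scaling. Of 32 tested genes for translocation into the endoplasmic reticulum (ER) and N-glycosylation, 19 were higher and 2 lower against hemolymph, 20 and 1 against midgut, and 15 and 3 against fat body. Of 58 for ER to Golgi transport, 28, 30 and 28 were higher and 1 lower each time, 24 of them higher than in every other tissue. Scaled by fragments, 11 of the transport genes were higher and 11 lower against midgut, 26 higher and 2 lower against fat body, and 2 higher and 2 lower than in every other tissue. The medians against hemolymph turned with the scaling, from 1.28 to -0.56 for translocation and from 0.98 to -0.82 for transport, and then 7 were higher and 10 lower, and 3 higher and 26 lower. Both medians stayed above that of all genes under either scaling. Against midgut and fat body they stayed above 0: translocation had 1.36 and 0.87 as deposited and 0.40 and 0.60 scaled by fragments.

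Sec61 subunit alpha LOC114357353, the channel through which new secretory proteins enter the ER, had 833, 649 and 330 FPKM in the silk gland. It had 29.1, 26.8 and 14.5 FPKM in hemolymph, 51.1, 31.4 and 62.8 in midgut, and 137, 175 and 203 in fat body. The groups did not overlap (log2 fold changes of 4.59, 3.57 and 1.72, each ± 0.38). Translocon-associated protein subunit beta LOC114351053, a partner of that channel, had 2127, 2033 and 1724 FPKM in the silk gland, against 122, 111 and 95.8 FPKM in hemolymph, 168, 185 and 181 FPKM in midgut and 566, 482 and 700 FPKM in fat body. The order of tissues was the same for both, with fat body nearest to the gland. Cargo receptors of the emp24 family, picked after their values were seen, carry proteins from ER to Golgi. Of 8 models tested 5 were higher than in every other tissue, against 7.26% of all genes. Among them LOC114364515 was at 970, 669 and 867 FPKM in the gland and at most 1.35 FPKM in the other tissues. LOC114364212 was expressed everywhere, with 694, 717 and 617 FPKM in the silk gland and 137, 159 and 137 FPKM in fat body (2.22 ± 0.14).

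ER folding genes moved less uniformly. Of 14 tested, 5, 6 and 6 were higher and 2, 1 and 6 lower against hemolymph, midgut and fat body, and the medians of 0.62, 0.52 and 0.10 turned to -1.16, -0.43 and -0.16 when scaled by fragments. Protein disulfide-isomerase LOC114365871, which forms disulfide bonds and is a subunit of prolyl 4-hydroxylase, had 3875, 3629 and 3213 FPKM in the silk gland. It was higher than in hemolymph (543, 449 and 440 FPKM), midgut (588, 764 and 597) and fat body (1346, 1417 and 1291), by 2.90, 2.46 and 1.40, each ± 0.15. Prolyl 4-hydroxylase alpha subunits modify proline in collagen-like chains, and 4 models lie side by side on NW_021132648.1. This family was picked after its values were seen. LOC114355462 had 2466, 2072 and 1432 FPKM in the silk gland, against 1.79, 1.85 and 1.83 FPKM in hemolymph and 6.32, 2.29 and 4.64 FPKM in fat body. LOC114355461 (353, 211 and 337 FPKM) and LOC114355460 (55.4, 37.7 and 136 FPKM) were likewise higher than in every other tissue. The fourth, LOC114355424, went the other way, with 3.72, 3.38 and 6.1 FPKM in the silk gland, against 94.5, 66.2 and 67.8 FPKM in hemolymph and 44.3, 61.9 and 52 FPKM in fat body (-3.85 ± 0.23 and -3.34 ± 0.23), while it was not called against midgut (-0.73 ± 0.23).

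Cytosolic aminoacyl-tRNA ligases load amino acids onto tRNAs. Of 25 tested, 12, 13 and 18 were higher against hemolymph, midgut and fat body and 0, 0 and 1 lower, with 9 higher than in every other tissue (3 scaled by fragments). Their median against hemolymph turned from 0.94 to -0.76 with the scaling, and 4 were then higher and 9 lower (7 and 1 against midgut, 17 and 1 against fat body), while those against midgut and fat body went from 1.13 and 1.68 to 0.28 and 1.37. Glycine-tRNA ligase LOC114352424 was the extreme one. It had 682, 383 and 360 FPKM in the silk gland, against 37, 25.1 and 28.5 FPKM in hemolymph, 17, 14.8 and 22.2 FPKM in midgut and 15.2, 31.5 and 23.1 FPKM in fat body. Its log2 fold changes were 3.89, 4.60 and 4.29, each ± 0.30 (limma, adjusted p = 8.99e-07, 1.38e-07 and 3.6e-07). Serine-tRNA ligase LOC114356023 followed with 380, 353 and 316 FPKM in the silk gland, against 45.8, 34.1 and 39.4 FPKM in hemolymph and 30.2, 37.7 and 46.9 FPKM in fat body (3.11 ± 0.18 and 3.17 ± 0.18). The bifunctional glutamate/proline enzyme LOC114364489 had 210, 192 and 299 FPKM in the silk gland and at most 30.1 FPKM elsewhere.

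Ribosomal proteins gave the plainest case of a family whose calls moved with the scaling. All 75 tested were higher than in hemolymph as deposited, 68 were higher than in midgut and 17 than in fat body, and 0 were lower. Scaled by recovered fragments, 0, 6 and 0 were higher and 0 lower, and the medians of 1.85, 1.59 and 0.89 became -0.02, 0.62 and 0.63. The medians of all genes were 0.03, -0.01 and -0.03 as deposited and -1.28, -0.60 and -0.14 scaled by fragments. Ribosomal proteins stayed above them under either scaling. Ribosomal proteins held 12.3% ± 1.96 of silk gland fragments (SD, n = 3; 10.4% to 14.3%), against 11.9% ± 0.616 in hemolymph, 7.80% ± 0.376 in midgut and 7.86% ± 1.02 in fat body. As a share of fragments, silk gland and hemolymph overlapped. 40S ribosomal protein S6 LOC114363436 went from 1.82 ± 0.19 to -0.05 against hemolymph.

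Translation factors had medians of 0.56 and 0.83 against hemolymph and midgut, which turned to -1.26 and -0.13. Mitochondrial respiratory chain genes (73 tested) had 24 higher and 0 lower against hemolymph, but 0 and 30 after scaling by fragments. Their median against hemolymph turned from 0.85 to -0.93. Against midgut they had 1 higher and 7 lower as deposited and 0 and 55 scaled by fragments. Against fat body they had 4 and 18 as deposited and 3 and 36 scaled by fragments. Over all genes the median against hemolymph moved from 0.03 to -1.28. Scaled by fragments, 58.5%, 34.2% and 17.0% of all genes were lower against hemolymph, midgut and fat body. Genes for DNA replication were lower than in hemolymph under either scaling (22 lower and 0 higher of 52 as deposited), as were those for mitosis (22 lower, 1 higher of 31). Against fat body 4 of the replication genes were higher and 0 lower. V-type proton ATPase genes, which encode subunits of a proton pump, had 15 of 18 lower than in midgut (16 scaled by fragments). Against hemolymph 1 was lower as deposited and 14 scaled by fragments, and the median turned from 0.31 to -1.51.

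Further housekeeping lists also moved with the scaling. Of 61 ribosome biogenesis genes 8, 7 and 11 were higher and 2, 2 and 1 lower against hemolymph, midgut and fat body. Scaled by fragments 1, 0 and 5 were higher and 46, 6 and 1 lower, and the medians of 0.39 and 0.53 against hemolymph and midgut turned to -1.41 and -0.29. Of 44 proteasome genes, which degrade tagged proteins, 0, 1 and 2 were higher and 5, 1 and 0 lower as deposited, but 0 were higher and 41, 35 and 0 lower scaled by fragments. Of 30 heat shock proteins and chaperonins 3, 3 and 2 were higher and 5, 2 and 2 lower as deposited, and 1, 1 and 2 were higher and 26, 14 and 2 lower scaled by fragments, when 31 could be tested. Of 14 cathepsin and autophagy genes 1, 2 and 0 were higher and 3, 1 and 2 lower as deposited, and 0, 1 and 0 were higher and 12, 4 and 2 lower scaled by fragments. Over all genes 58.5% were lower against hemolymph and 34.2% against midgut under that scaling.

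**Figure D3:**
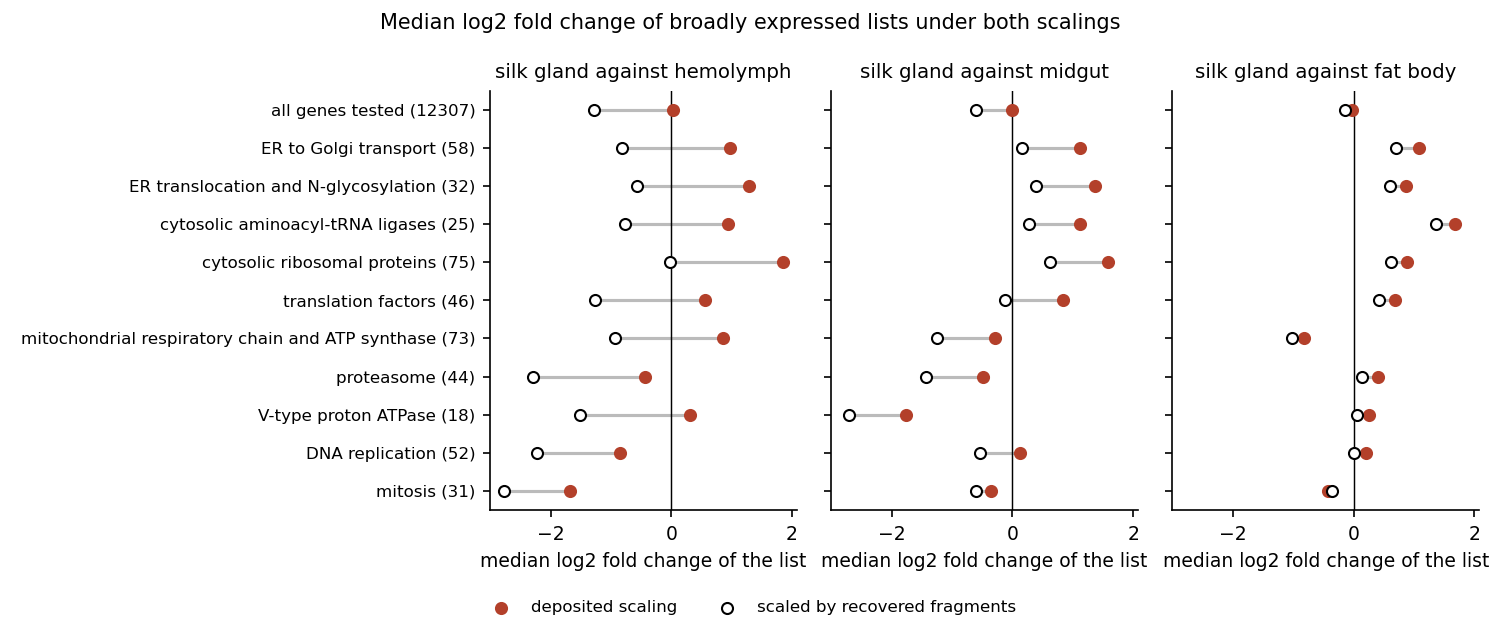
Median log2 fold change of 10 broadly expressed gene lists and of all genes, silk gland over each other tissue, with the deposited scaling (red) and scaled by recovered fragments (open circles, 12023 genes). Against hemolymph every open circle lies left of its red point and the medians of ER transport, translocation, tRNA ligases, ribosomal proteins, translation factors, mitochondrial genes and V-type ATPase cross 0, while against fat body no list crosses 0.

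Amino acid metabolism moved in both directions. Asparagine synthetase LOC114350169, which makes asparagine from aspartate and glutamine, had 1117, 1112 and 673 FPKM in the silk gland. It had 65.4, 56.5 and 65.4 FPKM in hemolymph, 11.7, 19.8 and 12.4 in midgut, and 62.3, 150 and 88 in fat body (log2 fold changes of 3.90, 5.95 and 3.31, each ± 0.32). It was the only one of 20 tested genes for serine, glycine, alanine and glutamine metabolism that was higher than in every other tissue, and 3 were lower. D-3-phosphoglycerate dehydrogenase LOC114366533, the first enzyme of serine synthesis, had 2.02, 3.57 and 2.3 FPKM in the silk gland, against 65.6, 80.6 and 49.6 FPKM in hemolymph, 41.2, 76.4 and 48.1 FPKM in midgut and 327, 885 and 656 FPKM in fat body. Fat body had the highest level and the gland the lowest, with no overlap (-7.33 ± 0.36 against fat body). Of the 20, 15 were lower than in fat body and 1 was higher. Of 35 amino acid transporters, 15 were higher against each tissue and 3, 11 and 5 lower, with 8 higher than in every one.

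Of 72 sugar transporters tested, 24 were higher than in every other tissue and 2 lower (21 and 5 scaled by fragments). Facilitated trehalose transporter Tret1-2 homolog LOC114353435, of the family that moves the blood sugar of insects, had 258, 326 and 215 FPKM in the silk gland, 0 in every hemolymph and midgut library and 0.211, 0.0609 and 0 FPKM in fat body. Its homolog LOC114365923 had 118, 82.7 and 65.3 FPKM in the silk gland and at most 0.0243 FPKM elsewhere. Tret1-like LOC114356915 was shared with fat body, with 340, 387 and 512 FPKM in the silk gland and 524, 292 and 482 FPKM in fat body, and its 1.84 against hemolymph turned to -0.02 under fragment scaling.

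Transcription factors of the homeobox, forkhead and bHLH classes had 17 of 57 tested members higher than in every other tissue and 1 lower (13 and 1 scaled by fragments). Class A bHLH protein 15-like LOC114363216, named after Mist1, a factor of secretory cells in mammals, led them. It had 398, 380 and 394 FPKM in the silk gland, against 0.34, 0.503 and 0.289 FPKM in hemolymph, 0.759, 2.64 and 1.36 FPKM in midgut and 5.99, 3.98 and 4.55 FPKM in fat body (8.16, 7.31 and 6.08, each ± 0.25). Homothorax LOC114366252, a cofactor of Hox proteins, had 48.3, 53 and 52.7 FPKM in the silk gland and 21, 27 and 23 FPKM in midgut, where its call (1.09 ± 0.20) was lost with a pseudocount of 0.1 (limma, adjusted p = 0.0534) and scaled by fragments (0.15). Hemolymph and fat body were under 1 FPKM.

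A few developmental regulators were looked up after their values were seen. Antennapedia-like LOC114360186, a Hox gene of the thorax that also acts in the silkworm silk gland, had 8.83, 12.5 and 12.1 FPKM in the silk gland, against 0.00806, 0.698 and 0.0226 FPKM in hemolymph and 4.46, 2.9 and 3.61 FPKM in fat body (3.32 ± 0.25 and 1.38 ± 0.25). Engrailed-like LOC114358152, a segment polarity factor, had 6.02, 8.79 and 9.42 FPKM in the silk gland and 0 in the other 9 libraries. All 3 tested engrailed or invected models were higher than in every other tissue (7.26% of all genes). LOC114358152 passed the filter only through the silk gland, so that count describes the models and tests nothing. Pax-6-like LOC114352087, of a family best known from eye development, had 31.2, 37.5 and 26.7 FPKM in the silk gland and at most 0.0492 FPKM elsewhere. All these values were low next to those of the silk proteins, but did not overlap those of the other tissues.

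Juvenile hormone keeps larvae from entering metamorphosis. Of 34 tested hormone pathway genes 10 were higher than in every other tissue. They comprised juvenile hormone acid O-methyltransferase LOC114365517, which completes hormone synthesis in the corpora allata (the glands behind the brain), juvenile hormone epoxide hydrolase-like LOC114351710, which degrades it, and 8 models described as juvenile hormone esterase-like. The methyltransferase had 402, 642 and 384 FPKM in the silk gland and at most 0.787 FPKM in the other 9 libraries (8.49, 8.61 and 8.80, each ± 0.27). The hydrolase had 139, 94.5 and 86.4 FPKM in the silk gland, against 15.6, 14.3 and 15.6 FPKM in hemolymph, 6.96, 3.31 and 7.86 FPKM in midgut and 14.2, 23 and 12.3 FPKM in fat body. The 17 tested esterase-like models were a family picked after its values were seen. Of these, 8 were higher than in every other tissue (7.26% of all genes) while 7 were lower than in midgut (18.5% of all genes). Thus 1 description covered genes with opposite tissue patterns. The highest, LOC114365529, had 1981, 2911 and 1937 FPKM in the silk gland, 0 in every hemolymph and midgut library, and 0.373, 0 and 0 FPKM in fat body.

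Carboxylesterases and lipases, which include those esterases, had 18 of 109 tested members higher and 6 lower than in every other tissue, and 57 lower than in midgut. Lipase 1-like models are named after acid lipases that cleave neutral fats. This family was picked after its values were seen, and 5 of 8 tested were in the higher set (7.26% of all genes). LOC114352108 had 7850, 7691 and 5116 FPKM in the silk gland and 0 in hemolymph, but 23.6, 14.4 and 0.112 FPKM in midgut and 303, 2.68 and 0 FPKM in fat body. The spread of the fat body made its error large (9.35 ± 1.71). LOC114352104 had 1380, 2683 and 2077 FPKM in the silk gland and at most 3.06 FPKM elsewhere.

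Glucose dehydrogenase-like oxidoreductases, a list added after the values were seen, had 7 of 17 tested members higher than in every other tissue and 0 lower, 4 of them in 1 run on NW_021132550.1 (285563 to 319601). LOC114355055, just beyond that run, had 1107, 971 and 652 FPKM in the silk gland, against 0 in hemolymph, 0.251, 0.174 and 0 FPKM in midgut and 9.14, 0.823 and 0 FPKM in fat body. Laccases, yellow proteins and peroxidases, which colour and harden insect surfaces, had 8 of 24 higher and 1 lower. Yellow-like LOC114363199 was at 498, 440 and 876 FPKM in the silk gland and also present in fat body (203, 86.3 and 134 FPKM; 2.11 ± 0.37). Of 68 cuticle and chitin genes 5 were higher than in every other tissue and 1 lower, a share near that over all genes (7.26% and 1.99%). Cuticle protein 67-like LOC114357687 had 872, 1152 and 389 FPKM in the silk gland and at most 1.43 FPKM elsewhere, and pheromone-binding protein-related protein 6-like LOC114355952, of a family that carries small hydrophobic molecules, had 717, 658 and 752 FPKM and at most 2.32 FPKM. Of 15 odorant-binding, chemosensory and takeout proteins 2 were higher than in every other tissue and 0 lower (1 and 0 scaled by fragments). Over all genes the shares were 7.26% and 1.99%. Of the 15, 6, 2 and 2 were higher and 1, 5 and 3 lower against hemolymph, midgut and fat body. UDP-glucuronosyltransferase 2B20-like LOC114356398, of a family that conjugates small molecules with sugars, had 3062, 2056 and 4448 FPKM in the silk gland and at most 0.416 FPKM elsewhere.

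**Figure D4:**
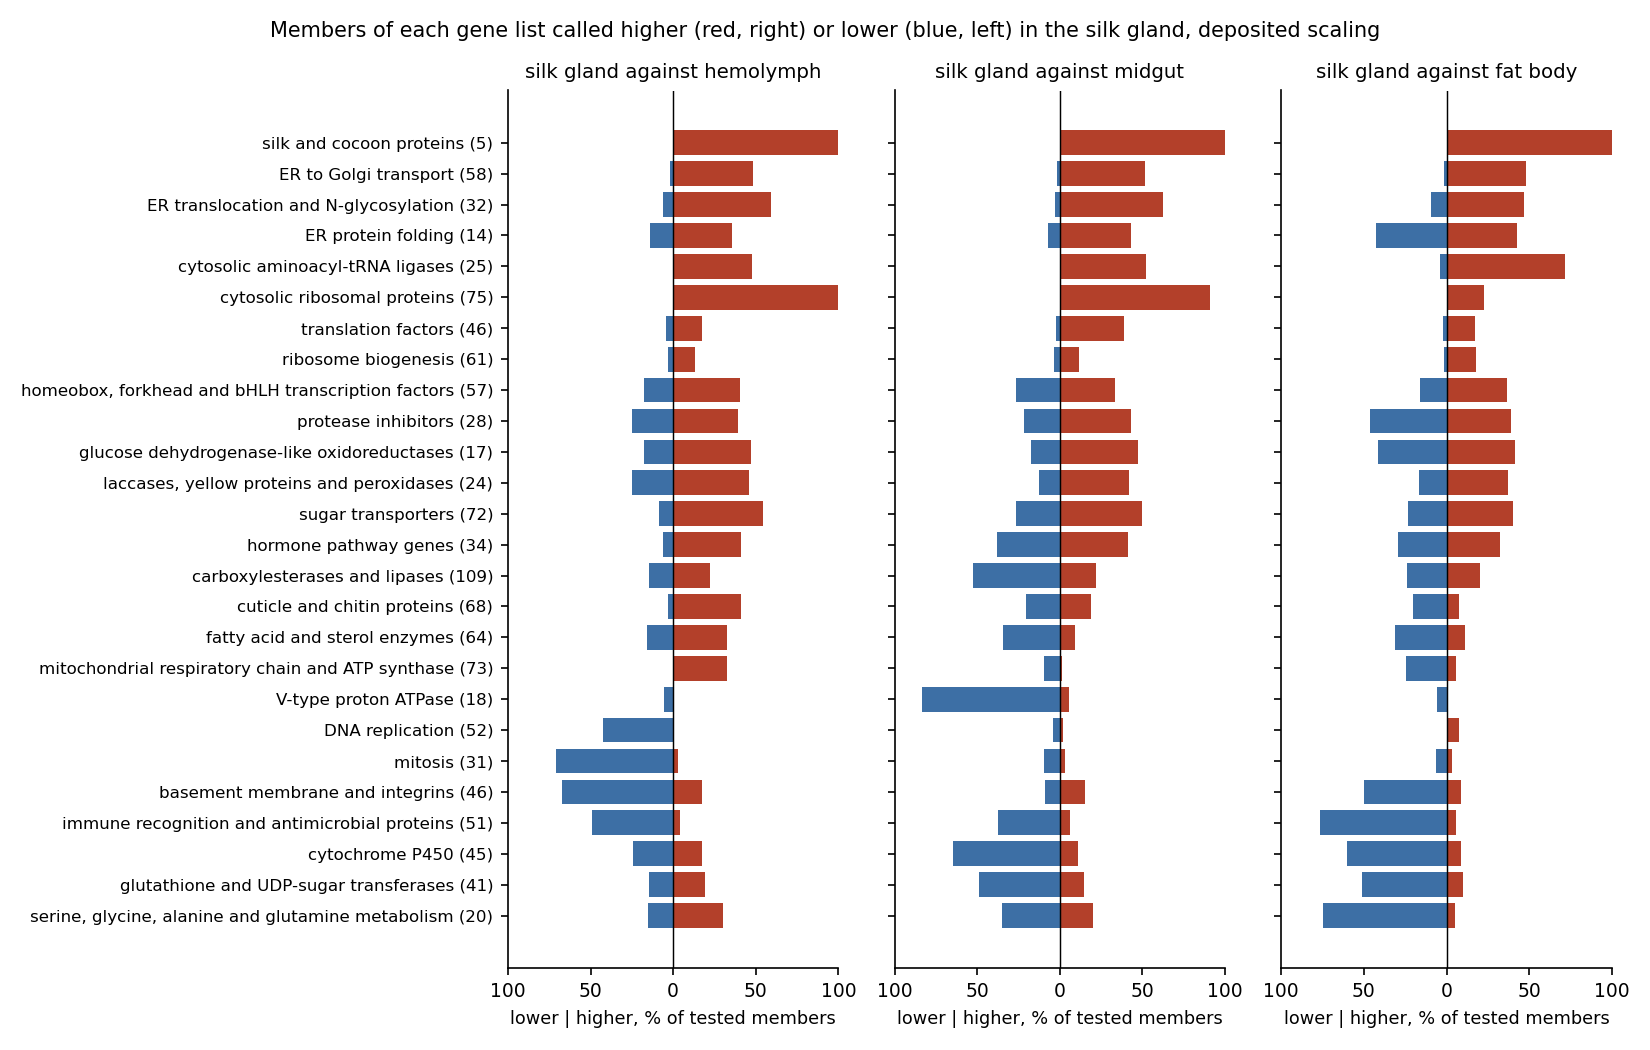
Percentage of the tested members of gene lists called higher (red, to the right) or lower (blue, to the left) in the silk gland than in hemolymph, midgut and fat body, with the deposited scaling and the number tested in brackets. Silk proteins are red throughout, ribosomal proteins are red mainly against hemolymph and midgut (when scaled by recovered fragments 0, 6 and 0 of 75 were higher than in hemolymph, midgut and fat body), and immune genes and cytochrome P450s are mostly blue against midgut or fat body.

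Genes lower in the silk gland than in every other tissue comprised 170 described ones, 2 serine proteases or homologs and 73 uncharacterized or undescribed ones. Their median smallest log2 fold change was 1.59 in size, against 2.04 for the higher set. In 234 of the 245 the highest silk gland library lay below the lowest of the other 9, which again follows largely from the choice of genes. At 0 in all 3 silk gland libraries were 2 of the 245.

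Taking the smallest of the 3 fold changes, the described genes that fell furthest were caspase-1-like ones, named after the effector caspases of programmed cell death. LOC114366116 had 0.125, 2.07 and 1.65 FPKM in the silk gland, against 114, 113 and 91.1 FPKM in hemolymph, 145, 217 and 162 FPKM in midgut and 157, 102 and 159 FPKM in fat body. The groups were far apart (-5.67, -6.37 and -6.04, each ± 0.34; limma, adjusted p = 8.63e-08, 1.97e-08 and 5.27e-08). LOC114366123 and LOC114366124 lie before it on the plus strand of NW_021130774.1, and all 3 fall between 582550 and 610786. They had at most 0.212 and 0.19 FPKM in the silk gland, against 33.9 to 42.7 and 20.7 to 42.6 FPKM in hemolymph, with lower levels in fat body (15.9 to 21.5 and 9.46 to 18.7 FPKM). Of 4 caspase-1-like models tested, these 3 were lower than in every other tissue, against 1.99% of all genes. This family was counted after its values were seen.

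NADP-dependent malic enzyme-like LOC114353914, a source of NADPH for fat synthesis, had 3.75, 1.98 and 4.48 FPKM in the silk gland, against 313, 216 and 258 FPKM in hemolymph, 51, 56 and 48.8 FPKM in midgut and 473, 628 and 830 FPKM in fat body (-5.93, -3.63 and -7.20, each ± 0.26). Cystathionine beta-synthase-like LOC114351865, which links homocysteine to cysteine synthesis, had 2.01, 0.93 and 5.21 FPKM in the silk gland, against 42.9, 28.4 and 41.2 FPKM in hemolymph and 224, 301 and 278 FPKM in midgut. Spermine oxidase-like LOC114359478, an enzyme of polyamine breakdown, had at most 3.94 FPKM in the silk gland and at least 16.9 FPKM in every other library. For each of these genes the silk gland libraries lay below all others.

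Of 51 immune genes, 39 were lower than in fat body and 3 higher, with 25 and 2 against hemolymph and 19 and 3 against midgut. Peptidoglycan recognition protein-like LOC114352819, of a family that binds bacterial cell walls, had 2.95, 1.91 and 7.19 FPKM in the silk gland, against 126, 203 and 86.5 FPKM in hemolymph, 33.1, 38 and 44.2 FPKM in midgut and 345, 163 and 377 FPKM in fat body. The antimicrobial cecropin-D-like gene LOC114365165 had 0, 0 and 30.6 FPKM in the silk gland, against 243, 408 and 120 FPKM in hemolymph, 29, 43.3 and 16.7 FPKM in midgut and 185, 579 and 249 FPKM in fat body. Its replicate 3 overlapped midgut, where the call (-3.18 ± 1.10; limma, adjusted p = 0.0351) was lost when each of silk gland replicates 1 and 2 and midgut replicates 1 and 2 was left out (adjusted p of 0.0807 to 0.136), without the filter (0.0583), with the pair fitted alone (0.0798) and under a replicate block (0.0523).

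Detoxification genes were mostly lower than in midgut and fat body. Of 45 cytochrome P450 genes, which oxidize hormones and plant compounds, 29 and 27 were lower in these 2 comparisons and 5 and 4 higher, while 11 were lower and 8 higher than in hemolymph. Of 41 glutathione and UDP-sugar transferases, 20 and 21 were lower than in midgut and fat body and 6 and 4 higher. Basement membrane and integrin genes had 31 of 46 lower than in hemolymph and 23 lower than in fat body, but 4 lower and 7 higher against midgut, where their median of 0.06 turned to -0.13 with the scaling. Fatty acid and sterol enzymes had 20 of 64 lower than in fat body and 7 higher. The lowest fold changes against single tissues included, against hemolymph, cathepsin K-like LOC114363183 (0.895, 0.523 and 1.81 FPKM in the silk gland, against 2426, 2333 and 2171 FPKM in hemolymph) and, against midgut, lipase member I-like LOC114357995 (0.78, 6.38 and 0.473 FPKM in the silk gland, against 10612, 10922 and 8832 FPKM in midgut). Peptidoglycan-recognition protein SA-like LOC114352832 had 0.558, 1.63 and 0.282 FPKM in the silk gland, against 6784, 6505 and 3589 FPKM in midgut.

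Markers of other tissues were low in the silk gland libraries but not all at 0. Hemocyte markers summed to 7.69 to 10.1 FPKM in the silk gland, against 3613 to 6148 FPKM in hemolymph, and 7 of 7 tested were lower. Midgut markers summed to 68.7 to 89.1 FPKM in the silk gland, against 3822 to 4684 FPKM in midgut, with 12 of 18 tested lower and 3 higher. Fat body markers summed to 359 to 612 FPKM in the silk gland, against 142501 to 184245 FPKM in fat body, with 11 of 15 tested lower and 0 higher. Arylphorin subunit alpha-like LOC114359093, a storage protein of fat body, had 209, 127 and 140 FPKM in the silk gland, against 56104, 95154 and 62374 FPKM in fat body, and was higher than in midgut (5.48 ± 0.79). Silk list genes in turn summed to 161495 to 192279 FPKM in the silk gland, against 30.4 to 137 FPKM in hemolymph, 11.3 to 12.7 FPKM in midgut and 36.5 to 116 FPKM in fat body.

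Muscle markers summed to 588 to 805 FPKM in the silk gland, against 127 to 162 FPKM in hemolymph, 4816 to 6527 FPKM in midgut and 438 to 1039 FPKM in fat body. Of 29 tested, 19 were higher than in hemolymph and 20 lower than in midgut. Nerve markers summed to 459 to 619 FPKM in the silk gland, against 1028 to 1202 FPKM in hemolymph, 780 to 1341 FPKM in midgut and 639 to 938 FPKM in fat body. Of 23 tested, 6, 6 and 5 were higher and 5, 9 and 2 lower against hemolymph, midgut and fat body. The part of such RNA in the results above was not tested. In bulk tissue, fewer cells of a type and less RNA per cell cannot be told apart.

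The 3 silk gland libraries were alike for the main silk proteins and differed in others. Replicate 3 had 150 genes above both other libraries by 2 or more on the log2(FPKM + 1) scale, and 38 as far below. Replicate 2 had 98 and 18, and replicate 1 had 48 and 55. Lipid genes were among those high in replicate 3: fatty acid synthase LOC114352958 had 25, 32.2 and 273 FPKM in replicates 1, 2 and 3, and acyl-CoA Delta(11) desaturase-like LOC114361951 had 17.7, 8.19 and 169 FPKM. Both are fat body genes in these data, with 1902, 2438 and 3601 FPKM and 9211, 7436 and 6753 FPKM there. The desaturase was called higher than in hemolymph (2.23 ± 0.82; limma, adjusted p = 0.0448), but the call was lost under many alternatives. It was lost without silk gland replicate 3 (1.00, adjusted p = 0.0955) and when each of 8 libraries of the other tissues was left out (adjusted p of 0.0517 to 0.133). It was also lost without the filter (0.0733), with the pair fitted alone (0.0878), under a replicate block (0.0538), scaled by fragments (0.54, adjusted p = 0.561) and with limma-voom (0.52, adjusted p = 0.605). The immune gene hemolin-like LOC114351522 had 8.05, 42 and 175 FPKM in the silk gland. Fat body markers summed to 612, 359 and 453 FPKM in replicates 1, 2 and 3, and their part in these differences was not tested.

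The silk gland genes were also read in the whole-animal libraries, which the choice of members did not use. These levels are a description, since whole animals differ in the share of silk gland they hold. Fibroin light chain-like LOC114360339 averaged 0 FPKM in the embryo, 616, 1715 and 3747 FPKM in 1st, 3rd and 5th instar larvae, 41.5 FPKM in the pupa and 0.787 FPKM in the adult (n = 3 each). GspB-like LOC114366142 averaged 0.0207, 121, 1328, 6654, 3.07 and 0.527 FPKM over the same stages, and the 5th instar libraries ranged from 1268 to 13990 FPKM. Both were larval genes, with libraries of 1 instar far apart. Seroin-like LOC114363599 differed in that 65.6 and 52.6 FPKM remained in pupa and adult. Silk gland factor 1 LOC114352712 had its highest mean in the embryo (21.0 FPKM, against 3.08 FPKM in the 3rd instar), and the methyltransferase LOC114365517 in the adult (7.10 FPKM, against 3.15 FPKM in the 3rd instar).

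**Figure D5:**
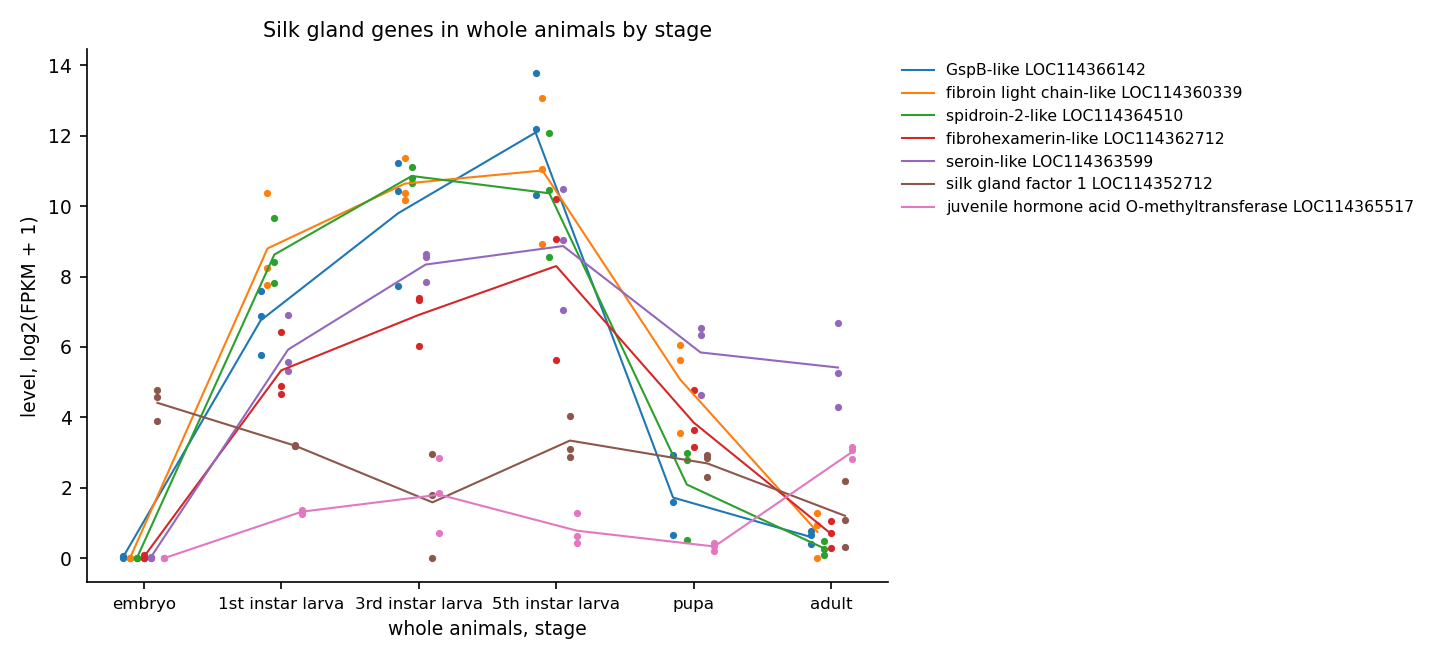
Level of 7 silk gland genes, log2(FPKM + 1), in whole animals from embryo to adult, with a point per library and lines through the mean of the 3 libraries. The 5 silk and silk-like genes are near 0 in the embryo, have their highest means in larvae and are low again in the adult except seroin-like, whereas silk gland factor 1 starts at its highest level and juvenile hormone acid O-methyltransferase ends at its own.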

How the data were processed

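The study sequenced polyA-selected RNA of wild type insects, and the 12 tissue libraries described here were assigned by their labels, with the 6 whole-animal stages used as values only. Per the methods, the authors cleaned reads with fastp, aligned them with HISAT2 (2.0.5 in the submitters' processing notes) and quantified expression with RSEM at its default settings. The deposited table names no unit. Its values are FPKM deposited by the authors: times gene length, 100% of values worth up to 200 fragments were whole multiples of 1 amount per library, within 0.02, from which fragments were recovered. No count table was used, so the test was limma-trend (limma 3.58.1, R 4.3.3) on log2(FPKM + 1), in 1 fit of the 12 tissue libraries. Other steps used Python 3.11.15, pandas 2.3.3, numpy 2.4.6 and matplotlib 3.10.9.

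The genes tested reached 1 FPKM in 3 or more of the 12 libraries. The 36 gene lists are searches of the gene descriptions, and a gene may stand in more than 1. Genes named are the 20 with the largest smallest fold change in the higher set, the 10 of the lower set, the 5 most extreme per comparison and direction, the 15 with the highest silk gland level, up to 4 called members of each list with its most abundant one, and 5 uncharacterized ones; others are said to be chosen after their values were seen. The members and lists were chosen with earlier results of these data known. Shares of fragments are given with no test, as 3 libraries against 3 cannot go below an exact p of 0.1.

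In simulated data 200 of 11443 genes were changed by 2 on the log2 scale. Of these, 185, 178 and 182 were called against hemolymph, midgut and fat body, with 9, 11 and 12 unchanged genes called. Far more genes were called in the real data (2248 higher and 1924 lower of 12307 against hemolymph). The simulated counts of false calls therefore give no error rate for the real data. How they depend on the scaling between tissues was not tested. The alternatives were a pseudocount of 0.1, no filter, each pair of tissues fitted alone, a block for the replicate number, each library left out in turn, scaling by recovered fragments, medians of ratios, and limma-voom on the recovered fragments. Replicate numbers were not taken to pair samples. Coordinates are those of the deposited table.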

Additional observations from a re-analysis of the deposited data

How the results depend on the processing

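Calls depended most on the scaling. Scaled by recovered fragments, genes higher in the silk gland numbered 856, 820 and 1106 against hemolymph, midgut and fat body and 445 against every tissue, and genes lower 7031 and 4115 against hemolymph and midgut and 792 against every tissue. With limma-voom they numbered 1100 and 971 higher against hemolymph and midgut, 497 against every tissue, and 7466, 4868 and 1151 lower. A pseudocount of 0.1 gave 430 genes lower than every tissue, against 245. Under the other alternatives these counts stayed within 1.5 times the reported ones. Leaving out each library gave 640 to 905 genes higher than every tissue (640 without silk gland replicate 2) and 222 to 297 lower, 1944 to 2280 higher and 1618 to 1994 lower against hemolymph, 1554 to 1848 and 1783 to 2319 against midgut, and 1405 to 1740 and 1931 to 2107 against fat body.

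Of 426 called values of named genes, 39 lost their call under fragment scaling and 35 with limma-voom, and 7 turned direction under each, all against hemolymph. Scaled by fragments, and with limma-voom, these were 40S ribosomal protein S6 (LOC114363436, -0.0493 and -0.0497), NSA2 (LOC114353403, -0.46 and -0.47), BRX1 (LOC114353609, -0.56 and -0.57), zw10 (LOC114351045, -0.37 and -0.39), Tret1-like (LOC114356915, -0.0193 and -0.0216), the succinate dehydrogenase iron-sulfur subunit (LOC114366317, -0.49 and -0.51) and the ATP synthase lipid-binding protein (LOC114353963, -0.0738 and -0.0746). By construction these scalings leave out the deposited adjustment between libraries. Of the 426, 6 lost their call with each pair fitted alone, 5 without the filter, 5 with medians of ratios and 3 with a pseudocount of 0.1.

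Same-numbered libraries did not all deviate together (correlations of -0.23 to 0.24, and in no pair of tissues did every silk gland library correlate best with its own number), so the numbers were not taken as pairs. With replicate numbers fitted as a block, 888 genes were higher and 236 lower than every tissue, and 2 of the 426 calls were lost, cecropin-D-like LOC114365165 against midgut (adjusted p = 0.0523) and the desaturase LOC114361951 against hemolymph (0.0538). Genes under 1 FPKM were not tested, and 3 libraries per tissue limit the precision of genes that vary within a tissue.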
